A study of Mus musculus with 24 samples.

Results

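The genes described here are 35 genes of autophagy and the lysosome in mouse left quadriceps muscle, chosen by gene name from a list of members of this pathway. This choice was made with earlier results of these data known. All 35 of 35 were found among the 25369 genes of the count tables, and all 35 passed the filter on low counts that left 14789 genes for testing. The muscle came from wild-type (WT) mice and from mice carrying the Lama2-CMD mutation, which affects the laminin alpha-2 chain of the muscle basement membrane and causes a congenital muscular dystrophy (CMD). Every mouse was 25 weeks old, and no treatment is given. Both genotypes were present on 4 inbred strains. B6 is C57BL/6J and D2 is DBA/2J, while 67 and 87 are BXD-67 and BXD-87, recombinant inbred strains descended from crosses of the first pair. There were 3 libraries in each of 8 groups: WT B6 is libraries 1 to 3, CMD B6 4 to 6, WT 67 7 to 9, CMD 67 10 to 12, WT 87 13 to 15, CMD 87 16 to 18, WT D2 19 to 21 and CMD D2 22 to 24. The labels give no name for the Lama2 allele and do not say whether littermates were used, so p-values measure the spread between these libraries.

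Autophagy encloses proteins, glycogen or organelles in a double membrane, the autophagosome, and delivers them to the lysosome, where acid hydrolases break them down. Kinase and lipid-kinase complexes start the membrane, ubiquitin-like proteins of the LC3 and GABARAP families are attached to it, and cargo receptors bind both the LC3-type proteins and the cargo. The lysosome is acidified by a proton pump, the V-ATPase, and the transcription factor TFEB switches on many genes of both the autophagosome and the lysosome. In skeletal muscle, too little and too much autophagy are each known to harm the fibre, and autophagy rises with fasting, denervation and glucocorticoids.

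Total exon reads ran from 32292613 to 51715975 per library, and levels are given as CPM, read counts divided by the size of the library and scaled by TMM normalisation. Library 16 (87 CMD) stood apart from the other libraries of its group: its muscle atrophy gene Trim63, a ubiquitin ligase, stood at 3815 CPM against 215 and 289.8 CPM in libraries 17 and 18. For this reason the counts are given with and without library 16, and single genes are given without it where a call or its size changed. In 4 D2 libraries the Y-linked reads went against the sex label: 19 and 21, labelled male, held 1 and 0 such reads, and 22 and 24, labelled female, held 4927 and 4858. The fit therefore holds no sex term. By Y-linked reads libraries 1, 4, 6, 7, 13, 17, 18, 22 and 24 were male and all others female. All CMD libraries of 67 and all WT libraries of D2 were thus female, and sex was not balanced between genotypes. In D2 the reads gave all female for libraries 19 to 21 and male, female and male for 22 to 24. The labels give these 2 patterns the other way round. Whether samples or labels of the 2 D2 groups were exchanged was not tested, and all D2 results take the genotype as labelled. Effects of CMD and of sex cannot be fully told apart, and fits with a sex term are given as alternatives. Lama2 itself ranged from 23.8 to 50.3 CPM in the WT libraries and from 12.9 to 33.8 CPM in the CMD libraries, and with the allele unknown its reads do not check the genotype. Muscle fibre markers were at high levels in every library, with a summed level of 9 genes of at least 89110 CPM. Genes were tested in edgeR's quasi-likelihood fit over all 24 libraries, with p-values adjusted by the Benjamini-Hochberg method over all genes tested and a threshold of 0.05. A gene past it is said to have risen or fallen, and fold changes are log2 values of CMD over WT with their standard error (SE).

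In healthy muscle the genes covered a wide range of levels. On the deposited TPM scale, which is per length of transcript, Psap, the precursor of the saposins that help break down sphingolipids, had the highest mean of the 12 WT libraries at 660.2 TPM (lowest 567, highest 759). The next were Ctsd, the aspartic protease cathepsin D, at 654 TPM (lowest 519.9, highest 909), and Lamp1, an abundant lysosomal membrane glycoprotein, at 469 TPM (lowest 423, highest 576). The ranges of Psap and Ctsd overlapped, as did those of Ctsd and Lamp1. Sqstm1, the cargo receptor p62, followed at 389.5 TPM and Map1lc3a, the LC3 protein LC3A, at 235 TPM. At the other end were Atg7, the E1-like enzyme of LC3 attachment, at 5.69 TPM, Atg14, a subunit of the lipid-kinase complex that nucleates the membrane, at 5.28 TPM, and Gla, the lysosomal alpha-galactosidase A, at 2.03 TPM. The range of Gla (1.31 to 2.60 TPM) lay below those of all the other 34 genes, and the ranges of Atg7 and Atg14 overlapped.

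**Figure D1:**
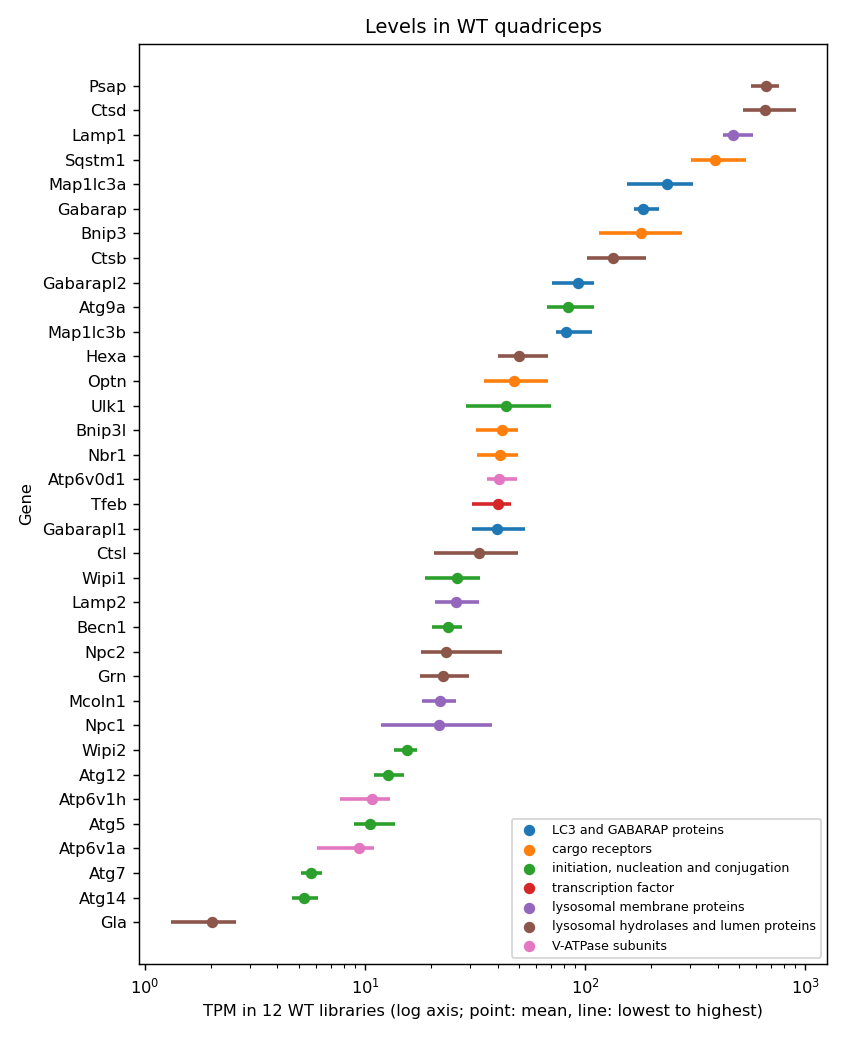
Levels of the 35 genes in WT quadriceps. The horizontal axis is TPM on a log scale, each point is the mean of 12 WT libraries, each line runs from the lowest to the highest library, and colours mark the role of the gene. Psap and Ctsd stand highest, and Gla at 2.03 TPM stands lowest.

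Across the set, with all libraries in the fit, calls went in each direction in 3 strains and were falls alone in B6. In B6 0 of 35 genes rose and 5 fell (14.3% of the 35), where 8.07% of all genes tested rose and 10.4% fell. By edgeR at an unadjusted p below 0.05, 3 of the 35 were higher in B6, and DESeq2 called 1 of them raised. In 67, 6 rose (17.1%) and 5 fell (14.3%), beside 11.4% and 10.3% of all genes. In 87, 9 rose (25.7%) and 6 fell (17.1%), beside 11.5% and 9.38%. In D2, 3 rose (8.57%) and 3 fell (8.57%), beside 11.2% and 9.03%. Shares in D2, and of falls in B6 and 67, lay within 5 percentage points of those of all genes, and those in 87 stood further above them.

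Without library 16 the counts were 3 raised and 9 lowered in B6 (11.5% and 13.8% of all genes), 7 and 7 in 67 (14.2% and 14.1%), 4 and 4 in 87 (7.27% and 7.43%), and 5 and 5 in D2 (13.6% and 14.8%). The 87 counts are then 11.4% of the 35 genes in each direction. The median log2 fold change of the 35 genes in 87 was 0.26 with library 16 and 0.01 without it, beside 0.01 and -0.01 for all genes tested. In B6, 67 and D2 it was 0.02, -0.03 and -0.03, beside 0.01, 0.00 and 0.03 for all genes. Leaving out library 16 also changed calls in the strains to which it does not belong. The 8 groups share 1 estimate of the spread of each gene in this fit, so library 16 enters the errors of every strain. For Npc1 in B6 the log2 fold change went from -1.23 (SE 0.49) to -1.21 (SE 0.23). For Psap in B6 it went from -0.50 (SE 0.11) to -0.48 (SE 0.11). The part of this in each changed call was not tested. With sex as labelled in the fit D2 counted 4 raised and 5 lowered, and with sex from Y-linked reads 4 and 2. Counted without a test, the 3 CMD libraries lay all above WT for 7 and all below for 12 of the 35 in B6 (19.7% and 21.6% of all genes), for 12 and 9 in 67 (22.2% and 21.8%), for 7 and 7 in 87 (15.5% and 15.1%), and for 6 and 6 in D2 (21.4% and 21.5%).

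Summed levels of muscle fibre markers and of fibroblast markers also differed between genotypes. The summed level of 9 fibre markers, which the most abundant of them dominate, ran from 148700 to 193500 CPM in the 12 WT libraries and from 89110 to 149400 CPM in the 12 CMD libraries. Single fibre markers went both ways, with 0 raised and 2 lowered in B6, 3 and 4 in 67, 4 and 2 in 87, and 0 and 1 in D2. Summed levels of 6 fibroblast markers were higher in CMD in B6 (989.6 to 1080 CPM against 428 to 928 in WT), 67 (844 to 1255 against 518 to 780.4) and D2 (1019 to 1637 against 422 to 715). In 87 they were 158, 436 and 626 CPM in libraries 16, 17 and 18 against 606 to 747 in WT. Of the 6 single fibroblast markers, 1 rose in B6, 3 in 67, 0 in 87 and 1 in D2, and 1 fell in 87. The part of these shifts in the levels of the 35 genes was not tested, and in bulk muscle fewer cells of a type and less RNA per cell cannot be told apart.

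**Figure D2:**
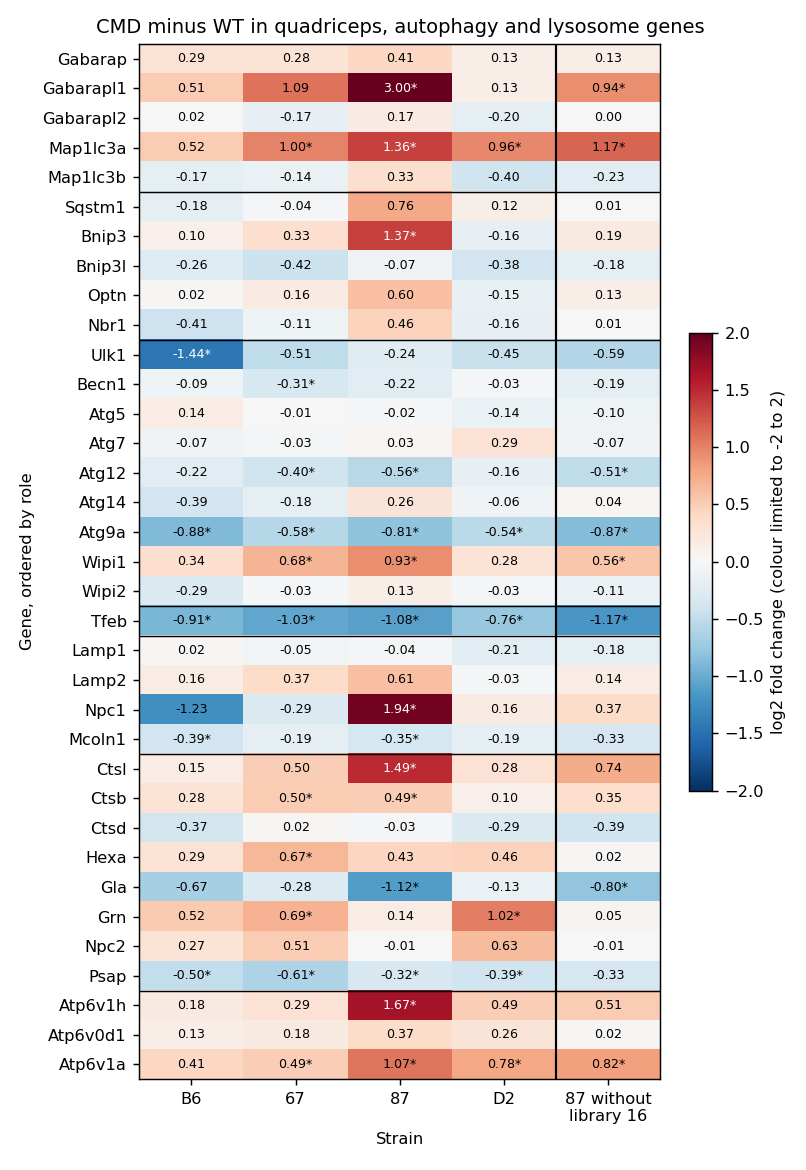
Log2 fold change of CMD over WT for the 35 genes (rows, ordered by role) in the 4 strains and in 87 without library 16 (columns). Red is higher in CMD, blue is lower, colours stop at -2 and 2, and a star marks an adjusted p below 0.05. The rows of Tfeb, Atg9a and Psap are blue and starred in all 4 strains, and the strong reds of Gabarapl1, Npc1 and Bnip3 in 87 fade when library 16 is left out.

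Tfeb, the transcription factor that gives the autophagy and lysosome genes a shared control, fell in all 4 strains. Tfeb in WT measured 107, 109 and 90.9 CPM in B6, 109.8, 111 and 125 in 67, 93.2, 127 and 119 in 87, and 86.03, 98.1 and 79.5 in D2. Tfeb in CMD measured 56.04, 61.2 and 45.9 CPM in B6, 54.9, 59.7 and 54.2 in 67, 58.7, 58.6 and 42.6 in 87, and 56.1, 49.2 and 50.6 in D2. Every CMD library lay below every WT library of all strains, with the highest CMD value (61.2 CPM) under the lowest WT value (79.5 CPM). The log2 fold changes were -0.91 in B6 (SE 0.15, adjusted p 0.000747), -1.03 in 67 (SE 0.15, adjusted p 0.000151), -1.08 in 87 (SE 0.15, adjusted p 0.000118) and -0.76 in D2 (SE 0.15, adjusted p 0.00191). These 4 calls held under all 32 alternatives in each strain. Library 16, at 58.7 CPM, lay beside library 17, at 58.6 CPM. Of all genes tested, 1.53% fell in all 4 strains, and 3 of the 35 did so: Tfeb, Atg9a and Psap.

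Promoter sequence was read for the genes because the motif that TFEB is known to bind, an E-box with the core CACGTG, can be looked for in it. RefSeq windows on the build GRCm38.p6, from 250 bases before to 50 bases after each start site, were matched by symbol for 28 of the 35 genes (those of Map1lc3a, Bnip3l, Becn1, Atg12, Npc1, Ctsb and Atp6v1h were not matched). CACGTG, which reads the same on both strands, was present in 11 of the 28 (39.3%), in 8.09% of all 27025 genes with a window and in 11.2% of the 11425 that were also tested here. The 8-base form TCACGTGA, which holds the core, was present in 5 of the 28 (17.9%) against 1.12% of all genes and 2.0% of the tested ones. The 9-base form TCACGTGAC, on either strand and overlapping the 8-base form, was present in 4 (14.3%) against 0.895% of all genes. The forkhead motif GTAAACA, on either strand, had no match in these 28 windows and one in 4.05% of all genes with a window. A match describes these letters of the reference genome and is not shown binding. Stretches that hold cores of the pump subunit gene Atp6v1a, the calcium channel gene Mcoln1, and Lamp1, Ctsd and Gla are shown with CACGTG in capitals, each read 5′ to 3′ on the strand of the gene.
Lamp1: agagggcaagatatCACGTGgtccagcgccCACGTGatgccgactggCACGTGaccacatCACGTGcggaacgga
Mcoln1: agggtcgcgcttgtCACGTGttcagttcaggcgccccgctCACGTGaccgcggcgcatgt
Ctsd: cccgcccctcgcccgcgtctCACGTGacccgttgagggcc
Atp6v1a: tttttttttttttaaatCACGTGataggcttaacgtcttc
Gla: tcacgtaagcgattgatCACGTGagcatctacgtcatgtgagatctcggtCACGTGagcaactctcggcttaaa
On GRCm38.p6 these lie upstream of the start sites at chr8:13159086-13159160 (plus strand) for Lamp1, chr8:3500434-3500493 (plus strand) for Mcoln1, chr7:142387906-142387945 (minus strand) for Ctsd, chr16:44139368-44139407 (minus strand) for Atp6v1a and chrX:134601176-134601249 (minus strand) for Gla. The Lamp1 stretch holds 4 cores, and 0.0244% of the 32851 windows hold 4 or more. The Mcoln1 and Gla stretches hold 2 each and the Atp6v1a stretch 1, which are all the cores of those windows. The Ctsd stretch holds 1 of the 2 cores of its window, with the other farther upstream.

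Calls among the genes with and without a core in the window can be set beside those of all genes, of which 8.07% rose and 10.4% fell in B6, 11.4% and 10.3% in 67, 11.5% and 9.38% in 87, and 11.2% and 9.03% in D2. Of the 11 with a core, 0 rose and 1 fell in B6, 1 rose and 0 fell in 67, 3 rose and 2 fell in 87, and 1 rose and 0 fell in D2. Of the 17 with a window and no core, 0 rose and 4 fell in B6, 3 rose and 3 fell in 67, 2 rose and 3 fell in 87, and 1 rose and 3 fell in D2. Without library 16 the 11 counted 1 rise and 2 falls in B6, 1 and 0 in 67, 1 and 1 in 87, and 1 and 0 in D2, and the 17 counted 1 and 6, 4 and 4, 2 and 2, and 2 and 4. With so few genes nothing is read from these counts. Among the genes whose stretches are shown, Atp6v1a rose in 3 strains, Mcoln1 fell in B6 and 87, Gla fell in 87, and Lamp1 and Ctsd were called in no strain.

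The LC3 and GABARAP proteins are the ubiquitin-like proteins attached to the growing membrane. With all libraries 2 of the 5 genes rose in a strain and none fell, where 8.07% to 11.5% of all genes rose and 9.03% to 10.4% fell. Map1lc3a (LC3A) rose in 67, 87 and D2. WT levels of Map1lc3a were 131.6, 133 and 123 CPM in B6, 127, 141 and 91.4 in 67, 151, 148 and 133 in 87, and 109, 134 and 140.0 in D2. CMD levels of Map1lc3a were 183, 194 and 177 CPM in B6, 249.6, 194 and 275 in 67, 459, 334 and 316 in 87, and 192, 285 and 269 in D2. The groups did not overlap in any strain, and library 16 was the highest of all 24. Log2 fold changes were 1.0 in 67 (SE 0.18, adjusted p 0.00105), 1.36 in 87 (SE 0.18, adjusted p 0.000122), 0.96 in D2 (SE 0.18, adjusted p 0.00178) and 0.52 in B6 (SE 0.18, adjusted p 0.0539). Without library 16 Map1lc3a passed the threshold in all 4 strains, with 0.53 in B6 and 1.17 in 87. Map1lc3a and Atp6v1a were the 2 genes of the 35 that rose in at least 3 strains, beside 4.55% of all genes tested (4.56% fell in at least 3, as did 3 of the 35). None rose in all 4, beside 1.43% of all genes.

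Gabarapl1, a GABARAP-family gene, rose in 87, and its value there rests on library 16. In WT Gabarapl1 stood at 48.96, 40.5 and 52.7 CPM in B6, 31.2, 33.1 and 35.4 in 67, 32.98, 34.2 and 34.1 in 87, and 42.2, 39.5 and 50.4 in D2. In CMD Gabarapl1 stood at 58.1, 76.6 and 67.2 CPM in B6, 60.9, 62.99 and 88.2 in 67, 681, 51.5 and 77.8 in 87, and 45.7, 49.97 and 48.9 in D2. CMD lay above WT without overlap in B6, 67 and 87, and within the WT range in D2. The log2 fold change in 87 was 3.0 (SE 0.59, adjusted p 0.00176) with library 16 and 0.94 (SE 0.18, adjusted p 0.00264) without it. Gabarapl1 in 67 was at 1.09 (SE 0.55, adjusted p 0.171) with library 16 in the fit and at 1.08 (SE 0.17, adjusted p 0.000206) without it. In B6 these were 0.51 (SE 0.55, adjusted p 0.555) and 0.52 (SE 0.16, adjusted p 0.0269), so the estimates stayed in place while their errors narrowed.

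Map1lc3b encodes LC3B, the LC3 protein most often used as a marker of autophagosomes, and it was called in no strain. Map1lc3b in WT measured 194, 217 and 219.8 CPM in B6, 194, 215 and 204 in 67, 246, 265 and 203 in 87, and 174.9, 203 and 189.7 in D2. Map1lc3b in CMD measured 182, 202 and 176 CPM in B6, 177, 172.0 and 208 in 67, 488, 208 and 199.8 in 87, and 157, 152 and 120.3 in D2. Only library 16 stood out, at 488 CPM, and in D2 CMD lay below WT without overlap. Without library 16 Map1lc3b fell in D2 (log2 fold change -0.44, SE 0.12, adjusted p 0.0122). On the deposited TPM scale the D2 step was smaller, from 75.2 (SD 2.92) in WT to 70.7 TPM (SD 10.6) in CMD. Gabarapl2, another gene of the GABARAP family, stood in WT at 80.9, 76.1 and 72.2 CPM in B6, 83.9, 96.2 and 87.2 in 67, 80.9, 94.6 and 79.5 in 87, and 56.4, 71.3 and 59.3 in D2. CMD levels of Gabarapl2 were 81.6, 78.3 and 71.7 CPM in B6, 77.8, 78.4 and 82.2 in 67, 116, 88.1 and 82.5 in 87, and 55.5, 60.2 and 46.7 in D2. Its D2 libraries were the lowest in each genotype, and CMD and WT overlapped in B6, 87 and D2. Gabarap, the founding gene of that family, lay above WT without overlap in B6 and 67 (adjusted p 0.229 and 0.237) and passed the threshold in no strain with or without library 16.

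Cargo receptors, which tie the cargo to LC3-type proteins, counted 1 rise in 87 and no other call among 5 genes with all libraries. Beside this, 8.07% to 11.5% of all genes rose and 9.03% to 10.4% fell in a strain, and nothing is read from so small a count. Sqstm1 (p62), a receptor for ubiquitin-tagged proteins, stood in WT at 774, 544 and 548 CPM in B6, 601, 501 and 469 in 67, 642, 602 and 505 in 87, and 392.4, 553 and 435 in D2. In CMD Sqstm1 stood at 627, 589 and 433 CPM in B6, 478, 454 and 594 in 67, 1772, 555 and 626 in 87, and 464, 529 and 509 in D2. WT and CMD overlapped in all 4 strains, and library 16 at 1772 CPM was 3.001 times the mean of libraries 17 and 18. The log2 fold change in 87 was 0.76 (SE 0.31, adjusted p 0.0846) with library 16 and 0.01 (SE 0.20, adjusted p 0.974) without it.

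Bnip3, a mitochondrial membrane receptor for mitophagy, stood in WT at 209.5, 182 and 250.1 CPM in B6, 163, 144 and 133 in 67, 224, 190.4 and 147 in 87, and 105, 127 and 107 in D2. Bnip3 in CMD measured 219, 235 and 233 CPM in B6, 145, 181 and 227 in 67, 1027, 203 and 224 in 87, and 116, 114 and 74.1 in D2. The groups overlapped in every strain, and in 87 libraries 17 and 18 lay within the WT range. The call in 87 (log2 fold change 1.37, SE 0.41, adjusted p 0.0219) was lost without library 16 (0.19, SE 0.21, adjusted p 0.596). Library 16 held 1027 CPM, beside 250.1 CPM in the highest of the other 23 libraries.

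Bnip3l, the related mitophagy receptor also called Nix, stood in WT at 73.8, 69 and 75.4 CPM in B6, 67.96, 87.05 and 74.6 in 67, 66.3, 80.5 and 65.2 in 87, and 48.8, 59.8 and 52.4 in D2. CMD levels of Bnip3l were 64.6, 60.97 and 57.1 CPM in B6, 55.1, 47.97 and 68.2 in 67, 76.7, 65.5 and 60.1 in 87, and 46.4, 44.8 and 32.5 in D2. In B6 and D2 the CMD libraries lay below WT without overlap. Bnip3l was called in no strain, and without library 16 it fell in 67 (-0.43, SE 0.14, adjusted p 0.0318) and D2 (-0.42, SE 0.14, adjusted p 0.0379). On the deposited TPM scale its D2 step was smaller, from 33.7 (SD 2.53) in WT to 32.1 TPM (SD 5.90) in CMD.

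Nbr1, a receptor that works beside p62, stood in WT at 109, 119.8 and 127 CPM in B6, 111, 104 and 109 in 67, 101.9, 94.6 and 114 in 87, and 97.04, 108 and 106 in D2. In CMD Nbr1 stood at 83.4, 86.95 and 97.3 CPM in B6, 98.6, 91.6 and 110.5 in 67, 218, 107 and 101.5 in 87, and 84.7, 93.4 and 100.4 in D2. CMD lay below WT without overlap in B6, and library 16 was high at 218 CPM while libraries 17 and 18 lay within the WT range. Without library 16 Nbr1 fell in B6 (-0.40, SE 0.10, adjusted p 0.0103). Optn (optineurin), a receptor for damaged mitochondria and bacteria, was called in no strain with or without library 16, with log2 fold changes from -0.15 in D2 to 0.60 in 87.

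Among the 9 genes of initiation, nucleation and conjugation, 2 fell in B6, 3 in 67, 2 in 87 and 1 in D2, and 1 rose in each of 67 and 87, beside the shares of all genes given above. Without library 16, 3, 4, 2 and 1 fell and the rises stayed at 1 in 67 and 1 in 87. Atg9a, the membrane protein of the vesicles that seed the autophagosome, fell in all 4 strains. WT levels of Atg9a were 181, 264 and 251.4 CPM in B6, 213, 200.2 and 207 in 67, 189, 268 and 235 in 87, and 201, 235 and 206 in D2. Atg9a in CMD measured 113, 132.3 and 131.8 CPM in B6, 137, 145 and 134 in 67, 139.9, 150.5 and 105 in 87, and 138, 129 and 176 in D2. The groups did not overlap in any strain. Log2 fold changes were -0.88 in B6 (SE 0.16, adjusted p 0.00203), -0.58 in 67 (SE 0.16, adjusted p 0.0177), -0.81 in 87 (SE 0.16, adjusted p 0.00222) and -0.54 in D2 (SE 0.16, adjusted p 0.0272). In D2 the mean of Atg9a went from 214 CPM in WT to 148 CPM in CMD. On the deposited TPM scale the step was smaller, from 83.4 (SD 5.49) to 71.85 TPM (SD 16.1). The D2 call was lost in 6 of 32 alternatives, among them leaving out library 20, 22 or 23 and the sex taken from Y-linked reads, and the 67 call in 3, when library 7, 10 or 12 was left out.

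**Figure D3:**
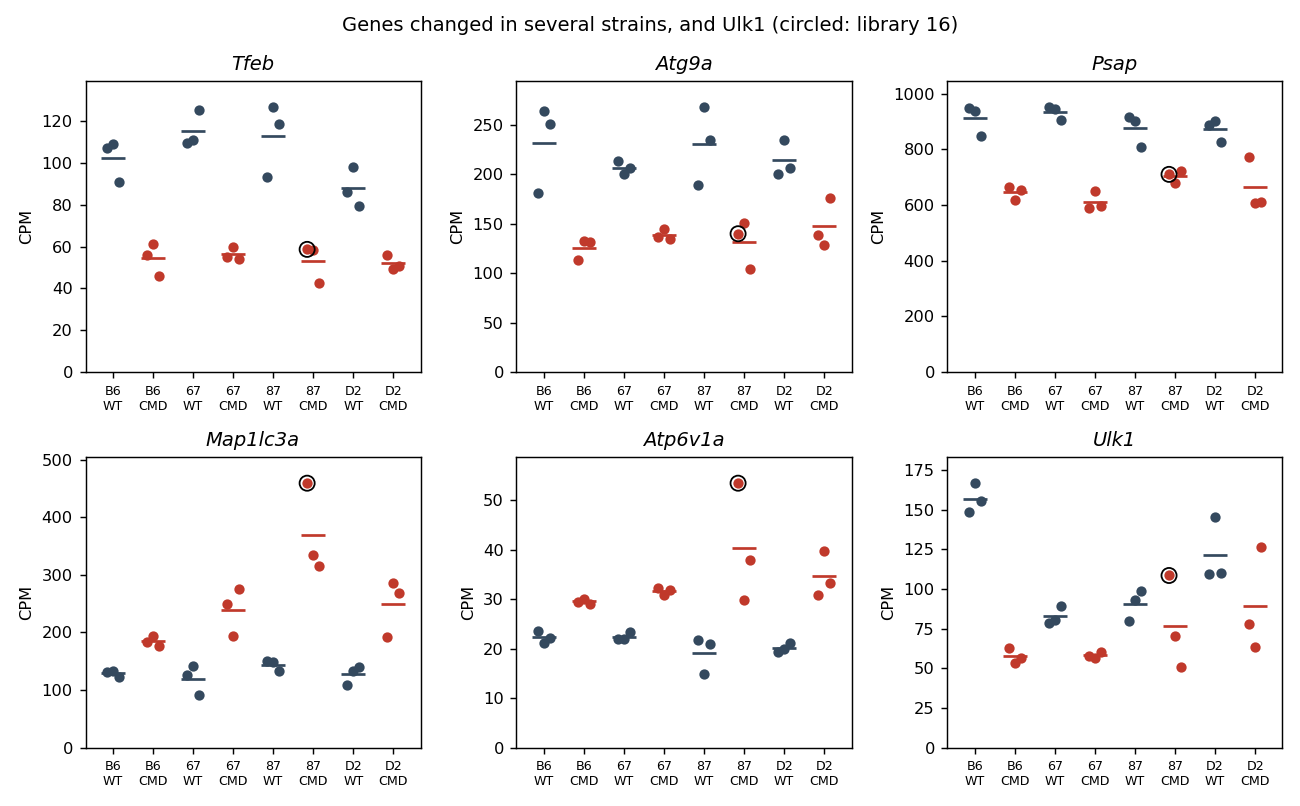
CPM (vertical axes, each from 0) of Tfeb, Atg9a, Psap, Map1lc3a, Atp6v1a and Ulk1 in the 8 groups. Points are libraries, bars are group means and the circled point is library 16. Tfeb, Atg9a and Psap are lower in CMD (red) than in WT (blue) in each strain, and the WT level of Ulk1 is highest in B6.

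Ulk1, the kinase that starts autophagosome formation, fell in B6. In WT Ulk1 stood at 148, 167 and 155 CPM in B6, 78.5, 80.8 and 89.1 in 67, 79.7, 92.9 and 98.9 in 87, and 109.8, 145 and 110.0 in D2. CMD levels of Ulk1 were 62.98, 53.7 and 56.8 CPM in B6, 58.1, 56.6 and 60.2 in 67, 109, 70.3 and 51.1 in 87, and 78.3, 63.5 and 126 in D2. WT B6 held the 3 highest libraries of all 24, and CMD B6 lay far below them. In 67 CMD also lay below WT without overlap, whereas in 87 and D2 library 16 and library 24 reached into or above the WT range. In B6 the log2 fold change was -1.44 (SE 0.23, adjusted p 0.000747), and the call held under all 32 alternatives. It was -0.51 in 67 (SE 0.23, adjusted p 0.119), -0.24 in 87 (SE 0.23, adjusted p 0.491) and -0.45 in D2 (SE 0.23, adjusted p 0.164). Without library 16 Ulk1 fell in 67 also (-0.51, SE 0.19, adjusted p 0.0470).

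Wipi1, which binds the lipid made by the nucleation complex, rose in 67 and 87. Wipi1 in WT measured 62.7, 62.5 and 69.96 CPM in B6, 50.01, 43.1 and 46.9 in 67, 44.4, 51.9 and 47.3 in 87, and 57.1, 65.7 and 63.9 in D2. In CMD Wipi1 stood at 76.96, 87.5 and 81.9 CPM in B6, 72.6, 74.6 and 76.9 in 67, 131.8, 76.3 and 65.6 in 87, and 60.2, 71.05 and 95.5 in D2. CMD lay above WT without overlap in B6, 67 and 87. The log2 fold changes were 0.68 in 67 (SE 0.19, adjusted p 0.0169) and 0.93 in 87 (SE 0.19, adjusted p 0.00244), and without library 16 the value in 87 was 0.56 (SE 0.15, adjusted p 0.0172). Removing library 8 or 9 ended the call in 67. Its relative Wipi2 was called in no strain with all libraries, and it fell in B6 without library 16 (-0.28, SE 0.09, adjusted p 0.0338).

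Becn1 encodes beclin 1, a subunit of the nucleation complex, and it fell in 67. WT levels of Becn1 were 66.05, 58.5 and 55.9 CPM in B6, 67.5, 64.8 and 69.1 in 67, 61.7, 68.9 and 61.99 in 87, and 46.9, 53.5 and 51.5 in D2. Becn1 in CMD measured 61.5, 51.6 and 56.8 CPM in B6, 55.9, 53.4 and 52.7 in 67, 52.2, 59.3 and 53.6 in 87, and 49.7, 47.3 and 51.7 in D2. CMD lay below WT without overlap in 67 and 87. In 67 the log2 fold change was -0.31 (SE 0.10, adjusted p 0.0267), and it was lost when library 7, 9, 11, 12 or 23 was left out. Only 85.0% of the Becn1 reads matched a single place in the genome, so its level is uncertain. Atg12, a ubiquitin-like protein that is joined to Atg5, fell in 67 (-0.40, adjusted p 0.0470, edgeR) and in 87 (-0.56, adjusted p 0.00789), and the 67 call was lost in 11 of 32 alternatives. Atg5 itself, Atg7 and Atg14 were called in no strain with or without library 16, with log2 fold changes from -0.39 to 0.29.

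The lysosomal membrane proteins gave 1 fall in B6 and 1 rise and 1 fall in 87 among 4 genes. The shares of all genes were 8.07% raised and 10.4% lowered in B6 and 11.5% and 9.38% in 87, and nothing is read from so few genes. Npc1 moves cholesterol out of the lysosome, and its WT level was high in B6. In WT Npc1 stood at 101.1, 85.9 and 84.9 CPM in B6, 69.8, 48.5 and 40.1 in 67, 46.1, 33.9 and 36.99 in 87, and 39.3, 40.4 and 42.5 in D2. CMD levels of Npc1 were 44.8, 33.1 and 38.2 CPM in B6, 33.95, 33.3 and 62.3 in 67, 347, 50.3 and 50.95 in 87, and 53.5, 35.04 and 48.3 in D2. CMD lay below WT without overlap in B6 and above WT without overlap in 87, where library 16 held 347 CPM and the others 50.3 and 50.95 CPM. Log2 fold changes were -1.23 in B6 (SE 0.49, adjusted p 0.0874), -0.29 in 67 (SE 0.49, adjusted p 0.708), 1.94 in 87 (SE 0.50, adjusted p 0.0106) and 0.16 in D2 (SE 0.49, adjusted p 0.837). Without library 16 the call in 87 was lost (0.37, SE 0.25, adjusted p 0.343), and Npc1 fell in B6 (-1.21, SE 0.23, adjusted p 0.00130).

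Mcoln1, the lysosomal calcium channel whose release of calcium activates TFEB, fell slightly in B6 (-0.39, SE 0.10, adjusted p 0.0167, edgeR) and in 87 (-0.35, SE 0.10, adjusted p 0.0238). Its CMD libraries lay below WT without overlap in B6, 67 and 87. The 87 call was lost without library 16 (-0.33, adjusted p 0.0553) and without library 14 or 15, and the B6 call without library 2 or 4. Lamp1, the gene with 4 E-box cores, was called in no strain. Lamp1 in WT measured 515, 509.8 and 502 CPM in B6, 495, 537 and 548 in 67, 567, 618 and 539 in 87, and 432, 514 and 474 in D2. In CMD Lamp1 stood at 537, 521 and 489 CPM in B6, 459, 486 and 576 in 67, 654, 498 and 519 in 87, and 424, 427 and 374 in D2. The groups overlapped in B6, 67 and 87, and its log2 fold changes ran from -0.21 in D2 to 0.02 in B6, each with an SE of 0.12. Lamp2, needed for fusion of autophagosomes with lysosomes, was at 0.61 in 87 (adjusted p 0.0592, edgeR) with library 16 and at 0.14 (adjusted p 0.587) without it, and was called in no strain.

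The 8 lysosomal hydrolases and lumen proteins had 1 fall in B6 and calls in each direction in 67, 87 and D2. The counts were 3 rises and 1 fall in 67, 2 and 2 in 87, and 1 and 1 in D2. Of all genes tested, 8.07% to 11.5% rose and 9.03% to 10.4% fell in a strain. With 8 genes nothing is read from these counts. Psap, the gene with the highest level in healthy muscle, fell in all 4 strains. WT levels of Psap were 951, 938 and 848 CPM in B6, 951, 947 and 906 in 67, 918, 901 and 810.2 in 87, and 887, 903 and 827 in D2. Psap in CMD measured 666, 619 and 653 CPM in B6, 589.7, 649 and 595 in 67, 710.5, 678 and 721 in 87, and 773, 607 and 612 in D2. The groups did not overlap in any strain. Log2 fold changes were -0.50 in B6 (SE 0.11, adjusted p 0.00622), -0.61 in 67 (SE 0.11, adjusted p 0.00103), -0.39 in D2 (SE 0.11, adjusted p 0.0190) and -0.32 in 87 (SE 0.11, adjusted p 0.0496). In D2 the mean of Psap went from 872 CPM in WT to 664 CPM in CMD. On the deposited TPM scale it went from 658 (SD 51.2) to 616 TPM (SD 12.4), so the size of this fall differs between the scales. TMM factors were 0.95 to 1.01 in WT D2 and 1.06, 1.33 and 1.15 in libraries 22, 23 and 24. The 87 call lies at the threshold, was lost in 26 of 32 alternatives, among them leaving out library 16 (-0.33, adjusted p 0.0726), with log2 fold changes from -0.36 to -0.27, and the D2 call was lost in 5, among them leaving out library 20, 23 or 24.

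Grn, the gene of progranulin, a lysosomal and secreted protein that macrophages also make, rose in 67 and D2. In WT Grn stood at 36.9, 27.9 and 31.6 CPM in B6, 29.3, 30.9 and 25.9 in 67, 35.9, 27.3 and 27.1 in 87, and 35.5, 25.2 and 33.6 in D2. CMD levels of Grn were 38.3, 58.2 and 41.4 CPM in B6, 42.7, 46.8 and 49.3 in 67, 37.4, 24.2 and 38.1 in 87, and 60.4, 53.1 and 77.8 in D2. CMD lay above WT without overlap in B6, 67 and D2, and overlapped WT in 87. Log2 fold changes were 0.69 in 67 (SE 0.20, adjusted p 0.0191), 1.02 in D2 (SE 0.20, adjusted p 0.00215), 0.52 in B6 (SE 0.20, adjusted p 0.0744) and 0.14 in 87 (SE 0.20, adjusted p 0.658). The call in D2 held under all 32 alternatives, and that in 67 was lost without library 7, 9 or 12. None of 15 macrophage markers was at 0 in any library. Their summed level was 90.7 to 272 CPM in WT and 235 to 326 CPM in CMD for B6, 99.8 to 163 and 241 to 362 for 67, 129 to 237 and 134 to 231 for 87, and 98.3 to 169 and 163 to 532 for D2. In B6 the marker ranges of WT and CMD overlapped through library 1 (WT), which also held the highest WT Grn of B6 (36.9 CPM). Library 23 (D2 CMD) held 163 CPM of the markers, within the D2 WT range, and also the lowest CMD Grn of D2 (53.1 CPM). Of the 15, 2 rose in B6, 7 in 67, 1 in 87 and 9 in D2, and their part in the levels of Grn and the other hydrolases was not tested.

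Hexa, the alpha subunit of the hexosaminidase that breaks down gangliosides, rose in 67 (0.67, SE 0.20, adjusted p 0.0254, edgeR) and without library 16 also in D2 (0.43, SE 0.14, adjusted p 0.0261). Ctsb, the cysteine protease cathepsin B, rose in 67 (0.50, SE 0.17, adjusted p 0.0363) and in 87 (0.49, SE 0.17, adjusted p 0.0394), and the 87 call was lost without library 16 (0.35, adjusted p 0.163) and in 6 other alternatives. The 67 calls of Hexa and Ctsb were lost without library 7, 9 or 12, and that of Ctsb also without library 8 or 10. Npc2, which hands cholesterol to Npc1, was called in no strain with or without library 16, with 0.63 in D2 (SE 0.23, adjusted p 0.0602).

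Ctsl, the cysteine protease cathepsin L, was called in 87 alone. Ctsl in WT measured 115, 118 and 155 CPM in B6, 96.5, 125 and 123 in 67, 99.3, 115 and 72.5 in 87, and 77.9, 64.7 and 88.8 in D2. In CMD Ctsl stood at 121, 199 and 110.4 CPM in B6, 161, 138 and 186 in 67, 487, 79.8 and 238 in 87, and 79.1, 126 and 75.9 in D2. The CMD libraries of 87 were spread from 79.8 to 487 CPM and overlapped WT. In 87 the log2 fold change of 1.49 (SE 0.40, adjusted p 0.0134) became 0.74 (SE 0.35, adjusted p 0.164) without library 16, and the call was also lost without library 15. Ctsd (cathepsin D) stood in WT at 822, 721 and 749 CPM in B6, 578, 624 and 587 in 67, 854, 824 and 624 in 87, and 617, 697 and 586 in D2. Ctsd in CMD measured 631, 612 and 532 CPM in B6, 516, 553 and 747 in 67, 1085, 570.2 and 601 in 87, and 503, 618 and 433 in D2. CMD lay below WT without overlap in B6 and overlapped it elsewhere, and no strain passed the threshold with or without library 16. Only 63.3% of Ctsd reads matched a single place, so its level is uncertain.

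Gla (alpha-galactosidase A), the gene with the lowest level of the set, fell in 87. WT levels of Gla were 4.16, 3.86 and 3.19 CPM in B6, 3.49, 2.96 and 3.18 in 67, 3.38, 4.11 and 3.85 in 87, and 1.96, 2.80 and 2.71 in D2. CMD levels of Gla were 2.84, 2.46 and 1.73 CPM in B6, 2.66, 2.90 and 2.37 in 67, 0.839, 2.22 and 2.15 in 87, and 2.26, 2.35 and 2.20 in D2. In B6, 67 and 87 CMD lay below WT without overlap, and library 16 held the lowest of all 24 values. Its log2 fold change in 87 was -1.12 (SE 0.27, adjusted p 0.00693) and without library 16 -0.80 (SE 0.22, adjusted p 0.0204), when Gla also fell in B6 (-0.66, SE 0.19, adjusted p 0.0194).

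Of the 3 V-ATPase subunits, 1 rose in 67, 2 in 87 and 1 in D2, and none fell in any strain. Among all genes tested, 8.07% to 11.5% rose and 9.03% to 10.4% fell in a strain, and nothing is read from counts of 3 genes. Atp6v1a, the subunit of the pump that binds ATP, rose in 67, 87 and D2. In WT Atp6v1a stood at 23.6, 21.1 and 22.2 CPM in B6, 22.03, 22.02 and 23.3 in 67, 21.7, 14.99 and 20.96 in 87, and 19.4, 19.96 and 21.2 in D2. In CMD Atp6v1a stood at 29.4, 30.1 and 29.1 CPM in B6, 32.2, 30.8 and 31.8 in 67, 53.4, 29.9 and 37.95 in 87, and 30.9, 39.7 and 33.2 in D2. Every CMD library lay above every WT library of all 4 strains, the lowest CMD value being 29.1 CPM and the highest WT value 23.6 CPM. Log2 fold changes were 0.49 in 67 (SE 0.16, adjusted p 0.0358), 1.07 in 87 (SE 0.16, adjusted p 0.000319), 0.78 in D2 (SE 0.16, adjusted p 0.00322) and 0.41 in B6 (SE 0.16, adjusted p 0.0847). Without library 16 Atp6v1a rose in all 4 strains, by 0.42 in B6 and 0.82 in 87, and the 67 call, lost in 15 of 32 alternatives, stood at 0.48 (adjusted p 0.00861, edgeR).

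Atp6v1h, a regulatory subunit of the pump, stood in WT at 16.1, 13.4 and 16 CPM in B6, 15.5, 15.7 and 13.4 in 67, 14.4, 13.2 and 12.1 in 87, and 12.7, 10.3 and 9.65 in D2. Atp6v1h in CMD measured 17.8, 19.04 and 14.6 CPM in B6, 17.7, 16.7 and 20.1 in 67, 88.8, 16.04 and 21.7 in 87, and 15.1, 18 and 12.6 in D2. CMD lay above WT without overlap in 67 and 87, and library 16 stood far above the rest. The log2 fold change in 87 was 1.67 (SE 0.39, adjusted p 0.00564) with library 16 and 0.51 (SE 0.17, adjusted p 0.0535) without it, when Atp6v1h rose in D2 (0.45, SE 0.16, adjusted p 0.0370). Atp6v0d1, a subunit of the membrane sector, was called in no strain with or without library 16.

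Whether the effect of CMD differed among the strains was asked with an F test of the interaction, which 4.67% of all genes passed. Of the 35 genes 1 passed, Npc1 (adjusted p 0.0470, edgeR), with lower CMD than WT values in B6 and higher ones in 87. Npc1 was past the threshold in 5 of 24 fits that left out 1 library and was not with sex from Y-linked reads (adjusted p 0.0531). Without library 16 Npc1 passed (adjusted p 0.0198) and so did Gabarapl1 (adjusted p 0.0423), beside 6.09% of all genes. The next smallest p-values with all libraries were those of Ulk1 (adjusted p 0.0841), Gabarapl1 (0.0963), Map1lc3a (0.181), Nbr1 (0.190), Atp6v1a (0.192), Grn (0.199) and Atp6v1h (0.217).

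The 6 pairs of strains were also compared. With all libraries the CMD effect on Gabarapl1 was lower in D2 than in 87 by a log2 difference of -2.87 (SE 0.79, adjusted p 0.0306), and no other of the 35 genes was called in any of the 6 pairs. The share of all genes called was 7.9% for D2 and 87, 3.62% for D2 and B6, 1.28% for D2 and 67, 0.142% for 87 and 67, 0.00676% for 67 and B6, and 0.00676% for 87 and B6. Without library 16 the difference of Gabarapl1 between D2 and 87 was -0.84 (SE 0.25, adjusted p 0.0490, 5.93% of all genes), and between D2 and 67 -0.98 (SE 0.23, adjusted p 0.0280, 3.54% of all genes). The fall of Ulk1 in B6 exceeded that in D2 by 0.94 (SE 0.26, adjusted p 0.0390). For Npc1, which fell in B6 (-1.21) and stood at 0.13 in D2 (adjusted p 0.697), the effects differed by 1.34 (SE 0.32, adjusted p 0.0164). Of all genes 6.35% were called between D2 and B6. None of the 35 was called in the remaining pairs (0.0133% of all genes for 87 and 67, 0.00667% for 67 and B6, and 0.00667% for 87 and B6). These calls share the WT and CMD libraries of D2.

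**Figure D4:**
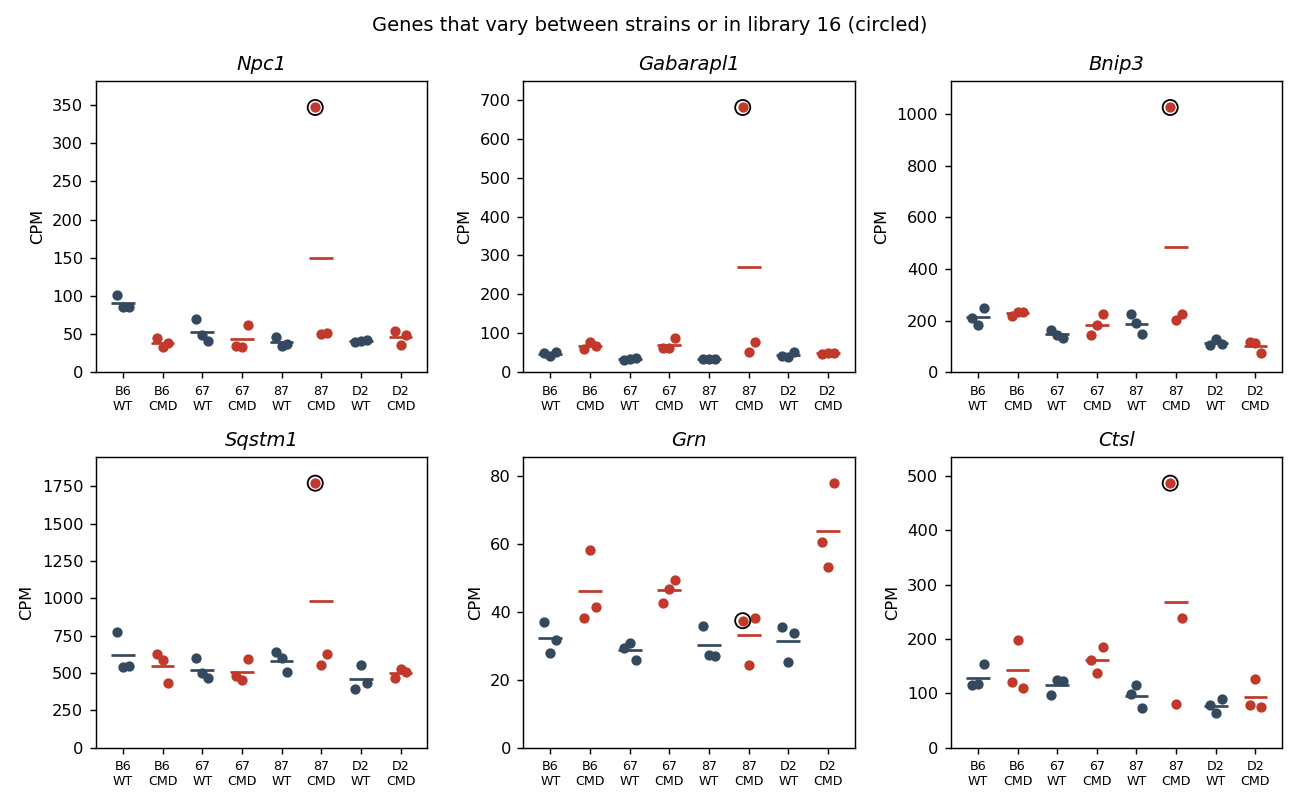
CPM (vertical axes, each from 0) of Npc1, Gabarapl1, Bnip3, Sqstm1, Grn and Ctsl in the 8 groups. Points are libraries, bars are group means and the circled point is library 16. Library 16 lies above the other 23 for all but Grn, and the group mean of 87 CMD lies above both of its other libraries for Npc1, Gabarapl1, Bnip3, Sqstm1 and Ctsl.

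In healthy muscle 2 of the 35 genes differed among the 4 WT strains by an F test, Ulk1 (adjusted p 0.0315, edgeR) and Becn1 (adjusted p 0.0395), beside 8.66% of all genes. WT Ulk1 was highest in B6 (157 ± 9.26 CPM, SD, n = 3), followed by D2 (122 ± 20.5), 87 (90.5 ± 9.83) and 67 (82.8 ± 5.56). The highest D2 library (145 CPM) lay below the lowest of B6 (148 CPM), and the ranges of 87 and 67 overlapped. All reads were aligned to 1 reference, GRCm39, and the part of sequence differences between strains in these levels was not tested. Becn1 was lower in WT D2 than in WT 67 (-0.41, SE 0.10, adjusted p 0.0105) and WT 87 (-0.34, SE 0.10, adjusted p 0.0383). Only 85.0% of its reads matched a single place in the genome (75.9% in the lowest library). Gabarapl2 was lower in WT D2 than in WT 67 (-0.52, SE 0.13, adjusted p 0.0169) and WT 87 (-0.45, SE 0.13, adjusted p 0.0464), and Bnip3l than in WT 67 (-0.51, SE 0.15, adjusted p 0.0361). The shares of all genes in these pairs were 10.7% for D2 and 67 and 6.86% for D2 and 87. None of the 35 was called between the other WT pairs, with 7.38% of all genes for D2 and B6, 0.0541% for 87 and B6, 0.0473% for 87 and 67, and 0.0203% for 67 and B6. Without library 16, 6 of the 35 passed the F test (13.1% of all genes): Npc1, Ulk1, Bnip3, Gabarapl2, Becn1 and Wipi1. Npc1 was then lower in WT D2 than in WT B6 (-1.15, SE 0.23, adjusted p 0.00281), and Bnip3 likewise (-0.91, SE 0.19, adjusted p 0.00406), beside 9.97% of all genes. Ulk1 was lower in WT 67 than in WT B6 (-0.92, SE 0.19, adjusted p 0.0480, 0.227% of all genes) and Npc1 in WT 87 than in WT B6 (-1.20, SE 0.23, adjusted p 0.0399, 0.127%). In D2 and 67 the calls were those of Gabarapl2, Bnip3l, Becn1 and Wipi1 (15% of all genes), in D2 and 87 those of Gabarapl2, Bnip3, Becn1 and Gla (10.3%), and in 87 and 67 there was none (0.0867%).

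Library 16 held the largest departures of the set. It is a single library, so its values carry no test. Of the 35 genes, 10 stood at least 2-fold above the mean of libraries 17 and 18 (7.97% of all genes tested) and 1, Gla, at least 2-fold below (15.9%). It was the highest of all 24 libraries for 22 of the 35 genes, against 18.9% of all genes tested. Because the 35 genes were chosen with earlier results of these data known, these counts describe library 16 and are not independent support. The same holds for the counts by role below. Between libraries 17 and 18, 1 of the 35 genes was 2-fold apart, Ctsl, beside 1016 of the 14789 genes tested. The ratios to the mean of libraries 17 and 18 were 10.5 for Gabarapl1 (681 against 64.6 CPM), 6.84 for Npc1, 4.80 for Bnip3, 4.68 for Atp6v1h, 3.06 for Ctsl and 3.001 for Sqstm1. Map1lc3b, Optn, Lamp2 and Nbr1 followed at 2.39, 2.14, 2.12 and 2.09.

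By role, library 16 was the highest of 24 for 5 of 5 LC3 and GABARAP genes, 4 of 5 cargo receptors, 3 of 9 initiation genes, 3 of 4 membrane proteins, 4 of 8 hydrolases and 3 of 3 pump subunits. Tfeb was 1.16 times the mean of its group mates. All 9 of 9 listed atrophy and glucocorticoid-responsive genes stood at least 2-fold above the mean of libraries 17 and 18. Among them were the ubiquitin ligases Trim63 and Fbxo32 (3036 against 371 and 380.4 CPM) and the metallothionein Mt1 (1180 against 20.1 and 27.3 CPM). This list was chosen with earlier results of these data known and holds Trim63, so the count describes library 16 and is not independent support. Retreg1, a receptor for autophagy of the endoplasmic reticulum, stood at 2865 CPM against 215 and 239 CPM. Of 40 other lysosomal genes 2 stood at least 2-fold above and 6 at least 2-fold below, and 11 were the lowest of all 24, beside 7.97%, 15.9% and 20.3% of all genes tested. The summed fibroblast markers of library 16 stood at 158 CPM, the lowest of 24, and the summed macrophage markers at 151 CPM, between those of libraries 17 and 18 (134 and 231). The part of these marker levels and of the atrophy genes in the values of the 35 genes was not tested.

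**Figure D5:**
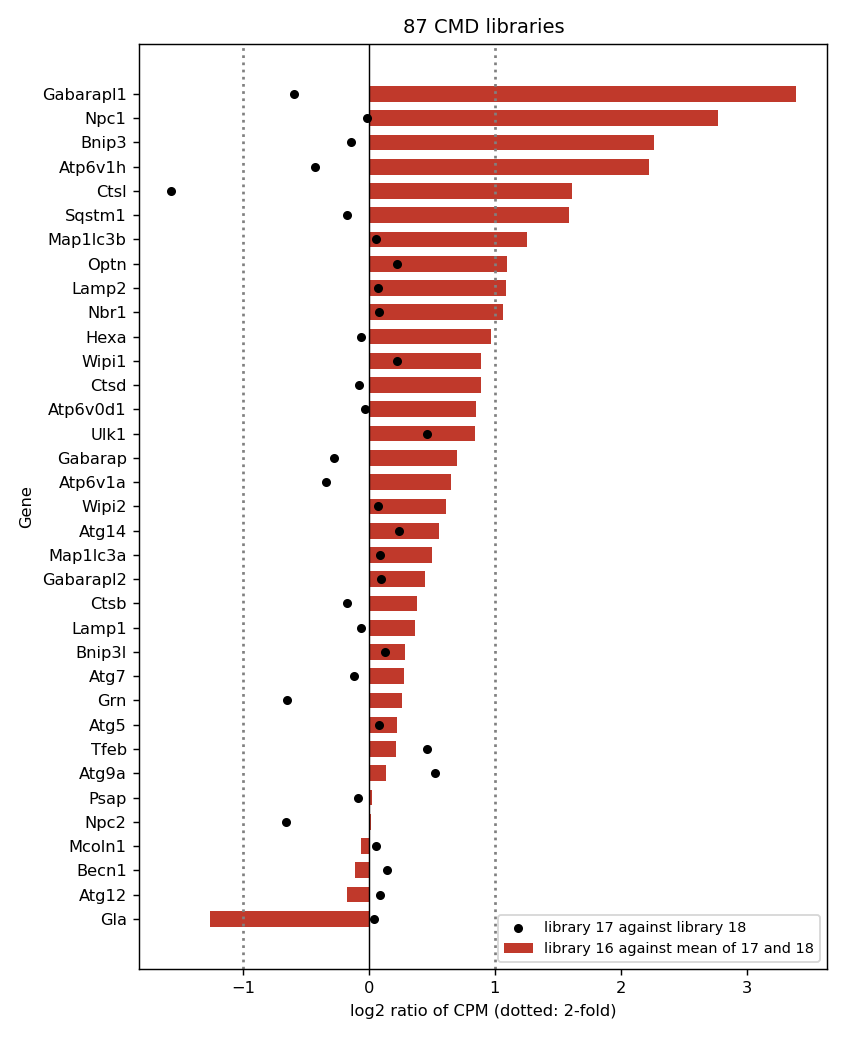
Log2 ratio of CPM in library 16 to the mean of libraries 17 and 18 (bars) for the 35 genes, with the log2 ratio of library 17 to library 18 (points). Dotted lines mark 2-fold. Bars of 10 genes pass the line on the right and that of Gla passes it on the left, while 1 point, Ctsl, lies outside the lines.

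Further genes of the pathway came from 5 lists with 114 genes. Of all 114, 13 rose (11.4%) and 20 fell (17.5%) in B6, 17 (14.9%) and 16 (14%) in 67, 19 (16.7%) and 12 (10.5%) in 87, and 13 (11.4%) and 12 (10.5%) in D2. The shares of all genes tested were 8.07% and 10.4% in B6, 11.4% and 10.3% in 67, 11.5% and 9.38% in 87, and 11.2% and 9.03% in D2. Without library 16 the 114 counted 17 and 27, 23 and 23, 7 and 14, and 17 and 17, beside 11.5% and 13.8%, 14.2% and 14.1%, 7.27% and 7.43%, and 13.6% and 14.8% of all genes. Of 27 other genes of the autophagy machinery, 1 rose and 9 fell (33.3%) in B6, 1 rose and 8 fell (29.6%) in 67, 2 rose and 5 fell (18.5%) in 87, and 0 rose and 4 fell (14.8%) in D2, and without library 16 1 and 13, 1 and 10, 2 and 4, and 1 and 6. The largest called changes were those of Epg5, a factor for fusion with the lysosome, in B6 (-1.38, SE 0.25, adjusted p 0.00169, edgeR) and D2 (-0.73, SE 0.25, adjusted p 0.0428), Uvrag, a subunit of the lipid-kinase complex, in 67 (0.77, SE 0.19, adjusted p 0.00889), and the fusion protein gene Vamp8 in 87 (0.99, SE 0.18, adjusted p 0.00109). Ulk2, the relative of Ulk1, was the gene of this list that fell in all 4 strains (-0.75, -0.71, -0.79 and -0.58 in B6, 67, 87 and D2), chosen after its values were seen. It fell in all 4 strains without library 16 also. With all libraries, 1.53% of all genes tested fell in all 4 strains. Uvrag also rose in 87 (0.56, adjusted p 0.0457), a call lost without library 16 (0.37, adjusted p 0.225), and Vamp8 also rose in B6 (0.67, adjusted p 0.0156).

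Of 13 other cargo receptors and mitophagy genes, 1 rose and 3 fell (23.1%) in B6, 0 and 3 in 67, 3 and 1 in 87, and 0 and 3 in D2. Without library 16 the counts were 2 and 5, 2 and 3, 2 and 2, and 0 and 4. Beside these, 8.07% to 11.5% of all genes rose and 9.03% to 10.4% fell in a strain. The shares without library 16 were 7.27% to 14.2% and 7.43% to 14.8%. With 13 genes nothing is read from these counts. The mitophagy receptor gene Fundc1 fell in 67 (-0.62, SE 0.17, adjusted p 0.0125, edgeR), and it fell by 0.76 in 87 (adjusted p 0.00360) and by 0.65 in D2 (adjusted p 0.0110). The mitophagy kinase gene Pink1 fell in B6 (-0.50, adjusted p 0.0278), 67 (-0.54, adjusted p 0.0166) and D2 (-0.74, SE 0.15, adjusted p 0.00310). Stbd1, a receptor for glycogen, rose in B6 (1.02, SE 0.34, adjusted p 0.0426), and Retreg1 rose in 87 with library 16 (3.52, SE 0.67, adjusted p 0.00137) and without it (1.23, adjusted p 0.00424).

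Of 40 other lysosomal genes, 8 rose (20%) and 2 fell in B6, 11 rose (27.5%) and 1 fell in 67, 5 rose (12.5%) and 3 fell in 87, and 10 rose (25%) and 2 fell in D2. Without library 16 the counts were 10 and 2, 12 and 3, 1 and 3, and 10 and 3. Of all genes tested, 8.07% rose in B6, 11.4% in 67, 11.5% in 87 and 11.2% in D2, and 9.03% to 10.4% fell. The shares without library 16 were 11.5%, 14.2%, 7.27% and 13.6% raised, and 7.43% to 14.8% lowered. Ctss, the cysteine protease cathepsin S, which is abundant in macrophages, had the largest called change in B6 (1.60, SE 0.45, adjusted p 0.0184, edgeR), 67 (2.05, SE 0.45, adjusted p 0.00369) and D2 (2.21, SE 0.45, adjusted p 0.00286). In 87 it was at 0.42 (adjusted p 0.537), and there Galns, a sulfatase, had the largest (1.49, SE 0.35, adjusted p 0.00625), a call lost without library 16 (0.93, adjusted p 0.0569). The rises were fewest in 87, as were those of the macrophage markers given above, and their part was not tested. Lgmn, the protease legumain, rose in all 4 strains (1.59, 1.23, 0.59 and 0.70 in B6, 67, 87 and D2), as did Gusb and Galns, and Tpp1, a tripeptidyl peptidase, fell in all 4 (-0.52, -0.32, -0.64 and -0.45). These 4 were chosen after their values were seen, and without library 16 Lgmn and Tpp1 kept a call in all 4 strains while Gusb and Galns did not. With all libraries, 1.43% of all genes tested rose and 1.53% fell in all 4 strains.

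Of 15 other V-ATPase genes, 3 rose and 2 fell in B6, 3 and 1 in 67, 5 and 2 in 87, and 2 and 0 in D2. Without library 16 the counts were 3 and 2, 4 and 4, 2 and 3, and 4 and 0. Beside these, 8.07% to 11.5% of all genes rose and 9.03% to 10.4% fell in a strain. The shares without library 16 were 7.27% to 14.2% and 7.43% to 14.8%. With 15 genes nothing is read from these counts. Atp6v0e, a small subunit of the membrane sector, rose in all 4 strains (0.89, 0.90, 1.38 and 0.84 in B6, 67, 87 and D2), chosen after its values were seen. Among all genes tested, 1.43% rose in all 4 strains. The accessory subunit gene Atp6ap2 rose in B6 (0.99, SE 0.26, adjusted p 0.0146, edgeR), 67 (0.90, SE 0.26, adjusted p 0.0195) and 87 (1.34, adjusted p 0.00178). Without library 16 it rose in all 4 strains, and its value in D2 was 0.51 (adjusted p 0.0266) and that in 87 was 0.75 (adjusted p 0.00932). Tcirg1, the a3 subunit of the pump, which is high in osteoclasts and macrophages, rose in 67 (0.64, adjusted p 0.0475) and D2 (1.39, SE 0.22, adjusted p 0.000565). Atp6v0d2 was called in 87 through library 16 (4.21, SE 1.24, adjusted p 0.0214), and stood at 0.36 (adjusted p 0.849) without it. Of 19 regulators, 0 rose and 4 fell in B6, 2 and 3 in 67, 4 and 1 in 87, and 1 and 3 in D2. Without library 16 the counts were 1 and 5, 4 and 3, 0 and 2, and 2 and 4. The shares of all genes are those given above for the V-ATPase genes, and nothing is read from counts of 19 genes. Deptor, an inhibitor of mTOR, fell in B6 (-1.11, SE 0.33, adjusted p 0.0262) and 67 (-1.09, SE 0.33, adjusted p 0.0241). Prkaa2, a catalytic subunit of the energy sensor AMPK, fell in B6 (-0.93, adjusted p 0.0185), 67 (-0.92, adjusted p 0.0164) and D2 (-1.12, SE 0.26, adjusted p 0.00611). The stress-induced mTOR inhibitor gene Ddit4 was called in 87 through library 16 (4.14, SE 1.01, adjusted p 0.00733), with 0.83 (adjusted p 0.402) without it. Rragd, a GTPase that recruits mTOR and TFEB to the lysosome, fell in all 4 strains (-1.01, -0.70, -0.95 and -0.57), chosen after its values were seen. Among all genes tested, 1.53% fell in all 4 strains. Tfe3, the relative of Tfeb, was also named after its values were seen: it rose in 67 (0.49, adjusted p 0.0110) and D2 (0.53, adjusted p 0.00746), where Tfeb fell.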

How the data were processed

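RNA from left quadriceps was extracted with TRIzol and made into Illumina stranded mRNA libraries, which were read from both ends at 58 bases each, per the labels' protocols. Reads were aligned to GRCm39 (mm39), per the submitters' processing notes, with aligner and counter not given in the sources used here. For each library the authors deposited total and unique exon read counts per gene, TPM and RPKM. Total exon read counts were tested, deposited TPM served to order genes within healthy muscle, and deposited RPKM values were not used. Libraries held 32292613 to 51715975 total exon reads, so counting error is small beside the spread between 3 libraries for all but the lowest genes. No pair of replicates agreed within counting noise, so none was treated as a library deposited again. This check does not show that libraries come from separate mice.

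Genes passing filterByExpr (minimum count 10, total 15) numbered 14789 of 25369, and 6830 of the rest had 0 reads in all libraries. Counts were scaled by TMM and fitted in edgeR 4.0.16 (glmQLFit, glmQLFTest, R 4.3.3) with 8 group terms, Benjamini-Hochberg adjustment over all genes tested and a threshold of 0.05. Interaction and WT F tests and 6 pairs of strains used the same fit. Groups and library numbers come from the labels. The members and the gene lists were chosen with earlier results of these data known. Genes shown in every library were those with the largest called changes per strain (3 in each direction), the smallest F test p-values, the largest departures in library 16 or calls in 3 or more strains, together with Tfeb, Sqstm1, Map1lc3b, Lamp1 and Ctsd. The fit was tested on simulated data. Alternatives were sex as labelled, sex from Y-linked reads, RLE size factors, no filter, unique exon reads, DESeq2 1.42.0, leaving out libraries 16 and 23 or each library in turn, and fitting each strain alone. Promoter sequences are from RefSeq on GRCm38.p6, whose coordinates are not those of GRCm39. They follow the reference genome, and the letters of the other strains were not analysed here.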

Additional observations from a re-analysis of the deposited data

Results flagged for a closer look

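The effect of CMD on Npc1, the lysosomal cholesterol transporter, differed among the 4 strains in the F test of the interaction (adjusted p 0.0470, edgeR's quasi-likelihood test, and 0.0198 without library 16). The call was lost with sex from Y-linked reads (adjusted p 0.0531) and in 19 of 24 fits that left out 1 library (adjusted p 0.00929 to 0.104 over all 24), and DESeq2 gave no adjusted p for it. The log2 fold change was -1.23 in B6, -0.29 in 67, 1.94 in 87 and 0.16 in D2. Every CMD library of B6 lay below its 3 WT libraries, and every CMD library of 87 lay above its 3 WT libraries. Without library 16 the value in 87 was 0.37, and that in B6 was -1.21. WT B6 held the 3 highest WT levels of Npc1 (84.9 to 101.1 CPM, against 33.9 to 69.8 CPM in the other 9 WT libraries). Of the Npc1 reads 95.3% matched a single place in the genome.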

How the results depend on the processing

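No paired analysis was possible because the library numbers 1 to 24 are unique, so the groups share no replicate number. No gene called in a strain, with or without library 16, changed direction there under any alternative. Of the values not called, 4 in 87 changed sign without library 16: Map1lc3b from 0.33 to -0.23, Wipi2 from 0.13 to -0.11, Atg7 from 0.03 to -0.07, and Gabarapl2 from 0.17 to just below 0. Of the 35 genes, those raised in B6 numbered 0, and 1 with sex from Y-linked reads, 1 by DESeq2, 3 without libraries 16 and 23, and 4 in a fit of B6 alone; those lowered numbered 5, and 9 without libraries 16 and 23. In 87, 9 were raised, with 5 without libraries 16 and 23 and 1 in a fit of 87 alone, and 6 were lowered, with 1 in a fit of 87 alone. In D2, 3 were lowered, with 5 under sex as labelled and 1 in a fit of D2 alone. Fits of 1 strain hold 6 libraries and less information on the spread. The interaction count of 1 became 2 with sex as labelled, 0 with sex from Y-linked reads, 2 by DESeq2 and 2 without libraries 16 and 23. The WT count of 2 became 1 without the filter, 1 with unique exon reads, 4 by DESeq2 and 6 without libraries 16 and 23. The cause of these shifts was not tested. Leaving out 1 library at a time gave 0 to 3 raised and 4 to 9 lowered in B6, 1 to 7 and 3 to 7 in 67, 4 to 16 and 4 to 6 in 87, and 3 to 5 and 1 to 5 in D2, with 0 to 5 for the interaction and 0 to 6 for WT strains. In 67 the raised count fell to 2, 3, 1 and 2 without library 7, 8, 9 and 12, and the lowered count to 3 without library 7, 9, 11, 12 or 23. In 87 it was 16 without library 17 and 4 without library 16. In D2 1 was lowered without library 20 or 23, and 5 without library 16. The interaction count moved by more than 1.5 times or to 0 in 22 of 24 such fits and the WT count in 17. With main counts of 1 and 2, a change of 1 or 2 genes passes that bound, so these 2 counts are not stable. Depth limits Gla most, at 0.839 to 4.16 CPM.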
